A study of Homo sapiens with 28 samples.

Results

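H3K4me3, the trimethylation of lysine 4 on histone H3, was profiled by ChIP-seq in EPC2 cells, an established line of immortalised human esophageal epithelial cells, under 4 treatments. For 6 h the cells were given 100 ng/ml of IL-13, 100 nM of vitamin D, IL-13 and vitamin D together at those doses, or no treatment (Untreated). All were kept in KSFM medium and plated at high density 1 day earlier, so every library came from crowded cells of 1 line, and the labels name no form of vitamin D. Each treatment had 1 H3K4me3 library, and these are 4 of the 28 samples of the series, which also holds 12 RNA samples and 12 further ChIP libraries. A region is a stretch with the same chromosome, start and end in a library's peak list, and its height is its highest summit pileup, the number of stacked fragments at that base. The 4 lists held 19160 regions with IL-13, 19740 with vitamin D, 19683 with both and 19605 in untreated cells, and overlapping regions merged into 21149. No treatment was repeated and no difference between treatments was tested, so differences are given as values with intervals that cover counting error only.

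H3K4me3 marks the nucleosomes around the starts of active and poised genes. It is written by the SET1 and MLL methyltransferases in complexes with WDR5, ASH2L and RBBP5, which can be drawn to unmethylated CpG islands by CpG-binding subunits, and it is removed by the KDM5 demethylases. IL-13 is a type 2 cytokine of allergic inflammation, including eosinophilic esophagitis, and signals through the transcription factor STAT6. Vitamin D binds the nuclear receptor VDR, which acts on its target genes with the retinoid X receptor. The series asks how these agents, alone and together, change expression and chromatin in the esophageal epithelium.

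The sequence before a gene's start differed between genes that carried the mark and genes that did not. The following are the 250 bases upstream of the RefSeq start (GRCh38.p14), 5′ to 3′ on the gene's strand, with each CG in capitals. The first 3, shown because their genes lack the mark, belong to genes with abundant or IL-13-induced RNA and no H3K4me3 region within 1 kb of the start in any library: IVL (chr1:152908296-152908545, plus strand), the cornified envelope gene, KRT10 (chr17:40822615-40822864, minus strand), a suprabasal keratin gene, and CCL26 (chr7:75789747-75789996, minus strand), the eosinophil chemokine gene. IVL and KRT10 have 0 CG and CCL26 has 4.
IVL: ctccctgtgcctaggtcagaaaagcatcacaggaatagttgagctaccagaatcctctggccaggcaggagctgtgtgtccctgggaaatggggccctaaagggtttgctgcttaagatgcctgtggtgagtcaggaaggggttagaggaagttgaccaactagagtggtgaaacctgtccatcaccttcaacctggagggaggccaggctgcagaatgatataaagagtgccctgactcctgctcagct
KRT10: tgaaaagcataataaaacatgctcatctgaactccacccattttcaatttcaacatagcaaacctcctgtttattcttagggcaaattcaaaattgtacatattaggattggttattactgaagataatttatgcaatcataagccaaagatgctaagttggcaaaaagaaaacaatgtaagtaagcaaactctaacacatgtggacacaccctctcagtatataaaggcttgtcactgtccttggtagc
CCL26: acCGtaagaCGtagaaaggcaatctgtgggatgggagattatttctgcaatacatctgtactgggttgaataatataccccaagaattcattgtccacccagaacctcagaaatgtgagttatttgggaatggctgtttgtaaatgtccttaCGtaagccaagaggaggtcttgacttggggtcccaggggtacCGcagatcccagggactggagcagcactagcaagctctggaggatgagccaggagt

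The next pair, shown for comparison, belongs to genes that were marked in all 4 libraries and stood highest in those with vitamin D: CD14 (chr5:140633176-140633425, minus strand), the lipopolysaccharide co-receptor gene, with 5 CG, and COL13A1 (chr10:69801656-69801905, plus strand), which encodes a transmembrane collagen, with 16.
CD14: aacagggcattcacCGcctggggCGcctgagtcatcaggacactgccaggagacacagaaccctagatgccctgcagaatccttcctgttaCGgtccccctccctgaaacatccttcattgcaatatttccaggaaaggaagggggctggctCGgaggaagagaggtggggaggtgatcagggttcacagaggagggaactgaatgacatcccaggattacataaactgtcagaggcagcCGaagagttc
COL13A1: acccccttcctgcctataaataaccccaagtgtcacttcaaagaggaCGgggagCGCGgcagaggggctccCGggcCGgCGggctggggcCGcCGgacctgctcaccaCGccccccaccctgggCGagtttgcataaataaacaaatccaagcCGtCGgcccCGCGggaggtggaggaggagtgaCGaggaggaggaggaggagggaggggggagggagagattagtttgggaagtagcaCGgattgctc

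CISH (chr3:50611775-50612024, minus strand), a feedback inhibitor gene of cytokine signalling, is shown with a different motif in capitals, TTCNNNGAA, the core of STAT binding sites with a spacer of 3 bases. It has 4 matches, which start 241 to 112 bases before the gene's start. The motif reads the same on both strands, and 6.57% of 35116 RefSeq promoter windows hold it. The form with a spacer of 4 bases, searched for as that of STAT6, was not found in the CISH window.
CISH: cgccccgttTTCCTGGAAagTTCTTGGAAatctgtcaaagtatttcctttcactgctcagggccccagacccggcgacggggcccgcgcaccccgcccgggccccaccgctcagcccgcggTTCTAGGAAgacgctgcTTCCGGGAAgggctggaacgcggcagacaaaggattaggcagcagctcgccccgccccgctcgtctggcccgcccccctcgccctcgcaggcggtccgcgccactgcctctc

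The 4 libraries differed in overall height. The median height was 39 with IL-13, 53 with vitamin D, 53 with both and 41 in untreated cells, and the background computed back from pileup and fold enrichment was 0.823, 1.37 and 1.58 times the untreated level in the 3 treated libraries. Both libraries with vitamin D were thus the higher ones. Heights were therefore divided by the median ratio to the untreated library at regions shared by all 4 libraries, which was 0.915 for IL-13, 1.26 for vitamin D and 1.26 for both. Scaled height means this divided value. The regions covered 26.9, 29.9, 29.7 and 28.7 Mb of the genome, with median widths of 1368.5, 1493, 1479 and 1445 bases with IL-13, vitamin D, both and in untreated cells. The starts of genes that mark epithelial cells carried the mark in all 4 libraries for 10 of 10 members, among them KRT5, KRT14 and TP63. Of 10 leukocyte marker genes 0 had a region, of 10 fibroblast markers 3 and of 10 endothelial markers 4. Of all 23407 genes 14068 had a region in at least 1 library and 13569 in all 4.

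Most H3K4me3 regions were found under every treatment. Of the merged regions 16106 (76.2%) were called in all 4 libraries, with a median height of 59, and 75.6% of those lay at promoters by the authors' annotation. Those called in 3, 2 or 1 of the libraries numbered 933, 1102 and 3008. Their median heights were 7.33, 6.5 and 6, near the lowest heights listed, which were 4 or 5 in each library. Regions called in both libraries with IL-13 and in neither without it numbered 119, against 236 in the reverse pattern. The same counts for vitamin D were 399 and 60. The highest mean scaled height over the 2 listing libraries was 13.6, 11.8, 16.3 and 9.82 in these 4 sets. Absence from a list is not a height of 0. The 2 libraries with vitamin D had the higher background and listed the most regions. The part of library depth in these counts was not tested.

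The shape of the mark around gene starts was alike in the 4 libraries. At 17550 starts with no other start within 5 kb, 68.8%, 68.6%, 68.8% and 68.3% of summits lay downstream of the start with IL-13, vitamin D, both and no treatment. The fullest 100-base bin began 200 bases downstream in each library and held 9.65% to 9.88% of summits. A smaller crest stood upstream, in the bin that begins 300 bases before the start, with 5.04% to 5.26%. Within 50 bases of the start lay 2.89% to 2.95% of the summits, in the gap between the crests where the nucleosome-depleted region of an active promoter is known to lie.

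**Figure D1:**
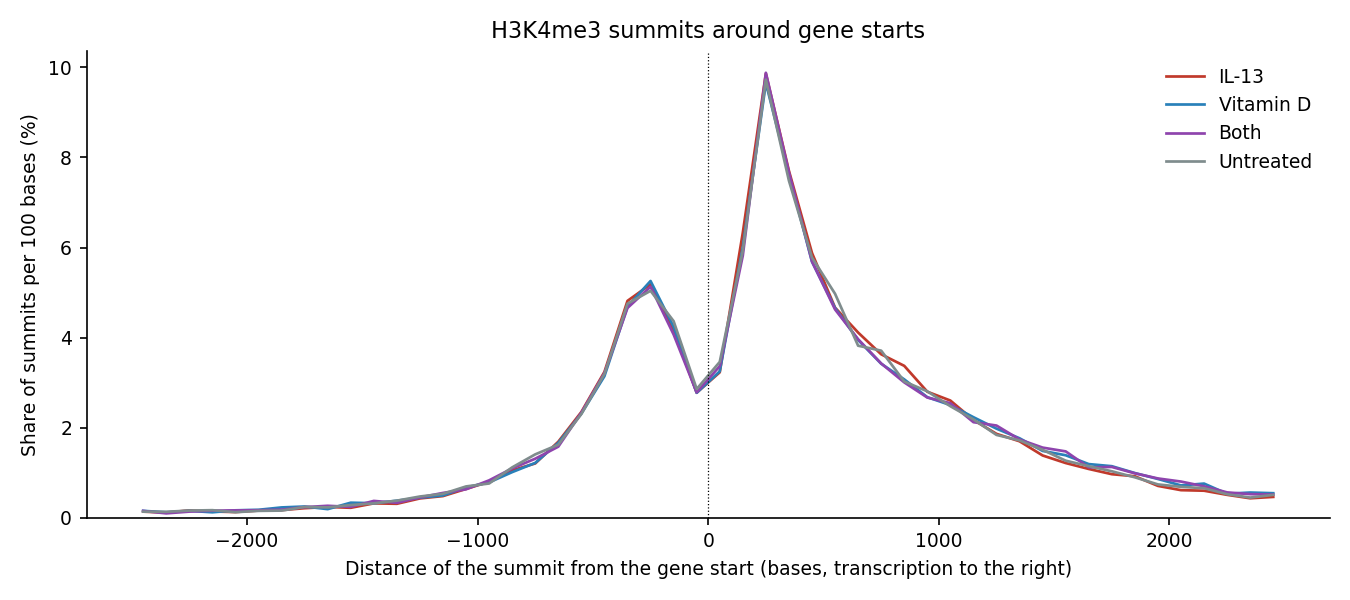
Share of H3K4me3 summits per 100-base bin (y axis, percent) by distance from the gene start (x axis, bases, downstream to the right) in the IL-13, vitamin D, both and untreated libraries. In each of the 4 lines the fullest bin lies 200 to 300 bases downstream, with a lower crest upstream and a dip at the start.

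The mark followed the RNA level of the gene. Among genes with 0 RPKM in the authors' deposited table, 7.44%, 8.12%, 7.83% and 7.84% had a region within 1 kb of a start with IL-13, vitamin D, both and no treatment. Among genes at 1 RPKM or more in the authors' deposited table the share was 93.8%, 94.0%, 93.9% and 93.8%. The median scaled height in untreated cells was 17 at silent genes, 44 at genes of 0.1 to 1 RPKM, 62 at 1 to 10 RPKM and 70 above 100 RPKM in the authors' deposited table. Width went on growing at the top, with a median of 1958 bases at 1 to 10 RPKM and 2821 bases above 100 RPKM in the authors' deposited table. Across genes with a region, log2 RPKM in the authors' deposited table and log2 height correlated at a Pearson's r of 0.526 with IL-13 (13697 genes), 0.526 with vitamin D (13896), 0.538 with both (13833) and 0.528 in untreated cells (13794). These are correlations across genes, which are not independent and share a library, and no p is given.

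Between treatments few shared regions differed in height by 1.5-fold or more when scaled by the median ratio. How many differed, and which way, depended on the scaling. With IL-13 against untreated cells, 380 of 16106 regions (2.36%) were higher and 478 (2.97%) lower. With vitamin D against untreated cells, 614 (3.81%) were higher and 165 (1.02%) lower, and with both against untreated cells 570 (3.54%) and 242 (1.5%). With both against vitamin D alone, which shows IL-13 on top of vitamin D, 250 (1.55%) were higher and 329 (2.04%) lower. With both against IL-13 alone, which shows vitamin D on top of IL-13, 674 (4.18%) were higher and 218 (1.35%) lower. Scaled by the background level in place of the median ratio, the higher and lower counts became 739 and 231 for IL-13 over untreated, 356 and 344 for vitamin D over untreated, 119 and 1608 for both over untreated, 84 and 955 for both over vitamin D, and 80 and 4837 for both over IL-13. Scaled within 20 bins of height, a choice made after the data were seen, the counts were 432 and 388 for IL-13 over untreated, 290 and 270 for both over vitamin D, 307 and 339 for vitamin D over untreated, 389 and 366 for both over untreated, and 378 and 389 for both over IL-13. The excess of higher regions with vitamin D thus held under the median ratio and not within height bins. It sat at weak regions: in the lowest sixth by height the median log2 ratio of vitamin D over untreated was 0.17 and in the highest sixth -0.07.

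The spread of the ratios was set by height. The SD of the log2 ratio of IL-13 over untreated was 0.47 in the lowest sixth of regions and 0.15 in the highest, and that of vitamin D over untreated 0.44 and 0.13. A 1.5-fold difference, 0.58 on the log2 scale, is about 1 SD in the lowest sixth and more than 3 SD in the highest.

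IL-13 over untreated and both over vitamin D share no library, and neither do vitamin D over untreated and both over IL-13, so each agent was seen in a pair of separate comparisons. For IL-13, 17 regions (0.106%) were at least 1.5-fold higher in both of its pairs and 46 (0.286%) lower. For vitamin D, 110 (0.683%) were higher in both of its pairs and 19 (0.118%) lower. Among the 12079 regions above the lower quartile of height these counts were 2 higher and 2 lower for IL-13 and 6 higher and 2 lower for vitamin D. Across the 16106 regions the log2 ratios of the 2 pairs correlated at r = 0.065 for IL-13 and 0.15 for vitamin D, a description over regions of the same 4 libraries. Of the 858 regions past 1.5-fold with IL-13 over untreated, 50.3% had the same sign in the second pair, and of the 779 with vitamin D over untreated 63.7%. Over all regions the same-sign shares were 51.7% for IL-13 and 54.7% for vitamin D, so the IL-13 share lay no higher than that of all regions. With background scaling the counts in both pairs were 16 higher and 47 lower for IL-13 and 16 higher and 136 lower for vitamin D. Within height bins they were 28 and 30 for IL-13 and 43 and 50 for vitamin D.

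**Figure D2:**
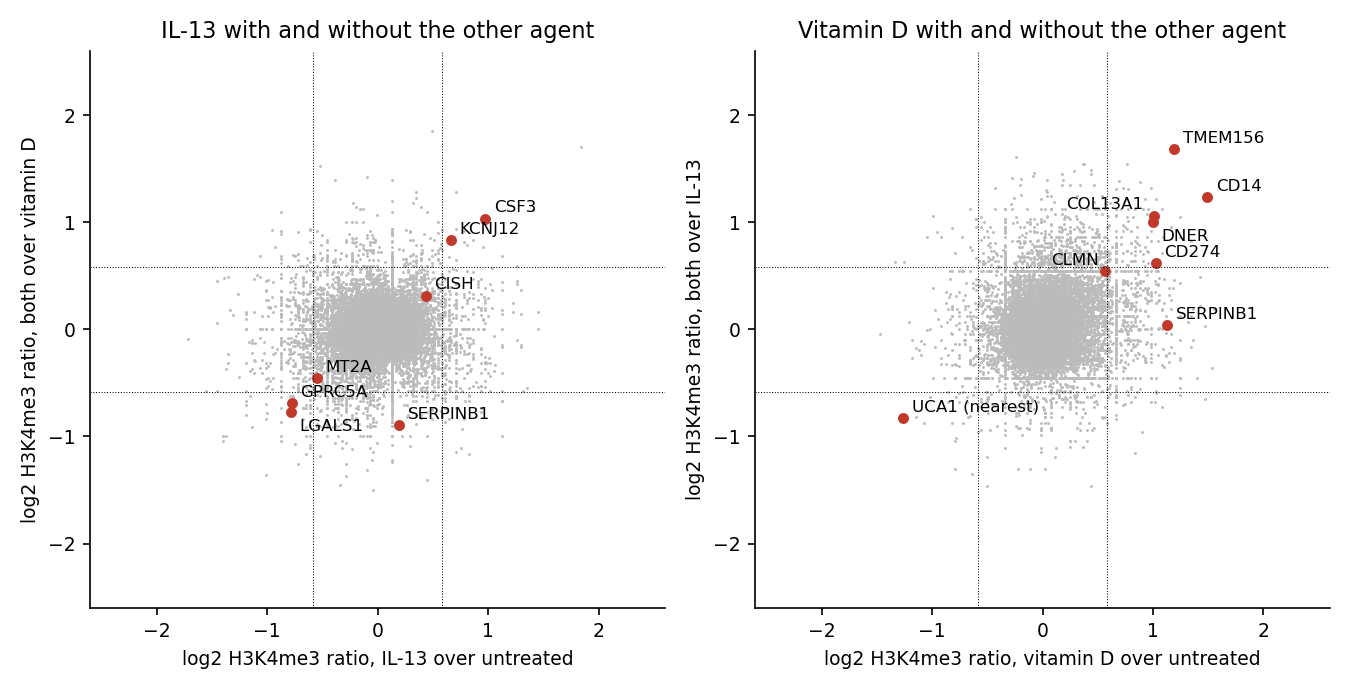
Log2 ratio of scaled H3K4me3 height in the first pair (x axis) and in the second, library-separate pair (y axis) for IL-13 (left) and vitamin D (right). Grey points are the 16106 regions called in all 4 libraries, red points the named ones, and dotted lines mark 1.5-fold. CSF3 and KCNJ12 stand at the upper right for IL-13, and CD14, TMEM156, COL13A1, DNER and CD274 for vitamin D.

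CD14 had the highest H3K4me3 ratio with vitamin D among the genes of the fixed lists. Its scaled height (hg19, chr5:140010820-140013138, at the promoter) was 14.2 with IL-13, 25.3 with vitamin D, 33.4 with both and 9 in untreated cells. Both libraries with vitamin D lay above both without it. The log2 ratio was 1.49 for vitamin D over untreated (95% counting interval 0.39 to 2.75) and 1.23 for both over IL-13 (0.31 to 2.26). The marked region was 729 bases wide with IL-13, 1983 with vitamin D, 2255 with both and 957 in untreated cells. CD14 RNA was 3.67, 132, 216 and 2.62 RPKM with IL-13, vitamin D, both and no treatment in the authors' deposited table. The region overlapped a VDR region called with vitamin D.

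COL13A1 and DNER showed the same order of libraries. COL13A1 (chr10:71561064-71563846) had scaled heights of 16.4 with IL-13, 26.1 with vitamin D, 34.2 with both and 13 in untreated cells, and log2 ratios of 1.01 (0.04 to 2.06) for vitamin D over untreated and 1.06 (0.18 to 2.02) for both over IL-13. DNER, which encodes a transmembrane ligand of Notch (chr2:230577751-230580058), had 21.8 with IL-13, 42.0 with vitamin D, 43.7 with both and 21 in untreated cells, and ratios of 1.00 in both pairs (0.24 to 1.80 and 0.24 to 1.82). At DNER the libraries formed a high pair with vitamin D and a low pair without it, with the 2 members of each pair within 2 units of each other. H3K27ac, the acetylation of active promoters and enhancers, was listed at DNER with vitamin D (scaled height 17.7) and with both (18) and not in the other libraries. DNER RNA was 4.74 RPKM with IL-13, 14.8 with vitamin D, 14.9 with both and 5.31 in untreated cells in the authors' deposited table.

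CD274, which encodes the T cell inhibitory ligand PD-L1 (chr9:5449652-5452339), had 29.5 with IL-13, 42.8 with vitamin D, 45.3 with both and 21 in untreated cells. Its ratio was 1.03 (0.27 to 1.83) for vitamin D over untreated and 0.62 (-0.07 to 1.34) for both over IL-13. The authors' deposited table gives CD274 RNA a log2 change of 1.51 with vitamin D. CLMN, a known VDR target that encodes calmin, had 37.1 with IL-13, 59.4 with vitamin D, 54.1 with both and 40 in untreated cells, with ratios of 0.57 and 0.54. PDPN, which encodes the mucin-type glycoprotein podoplanin, had 41.5, 55.4, 55.6 and 39 in the same order of libraries, with ratios of 0.51 and 0.42. At these 3 genes both libraries with vitamin D again exceeded both without it. The intervals of CLMN, -0.00 to 1.16 and -0.07 to 1.18, reach 0. With the summed summit pileups of the region in place of the highest, the CLMN ratio of vitamin D over untreated was -0.18.

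**Figure D3:**
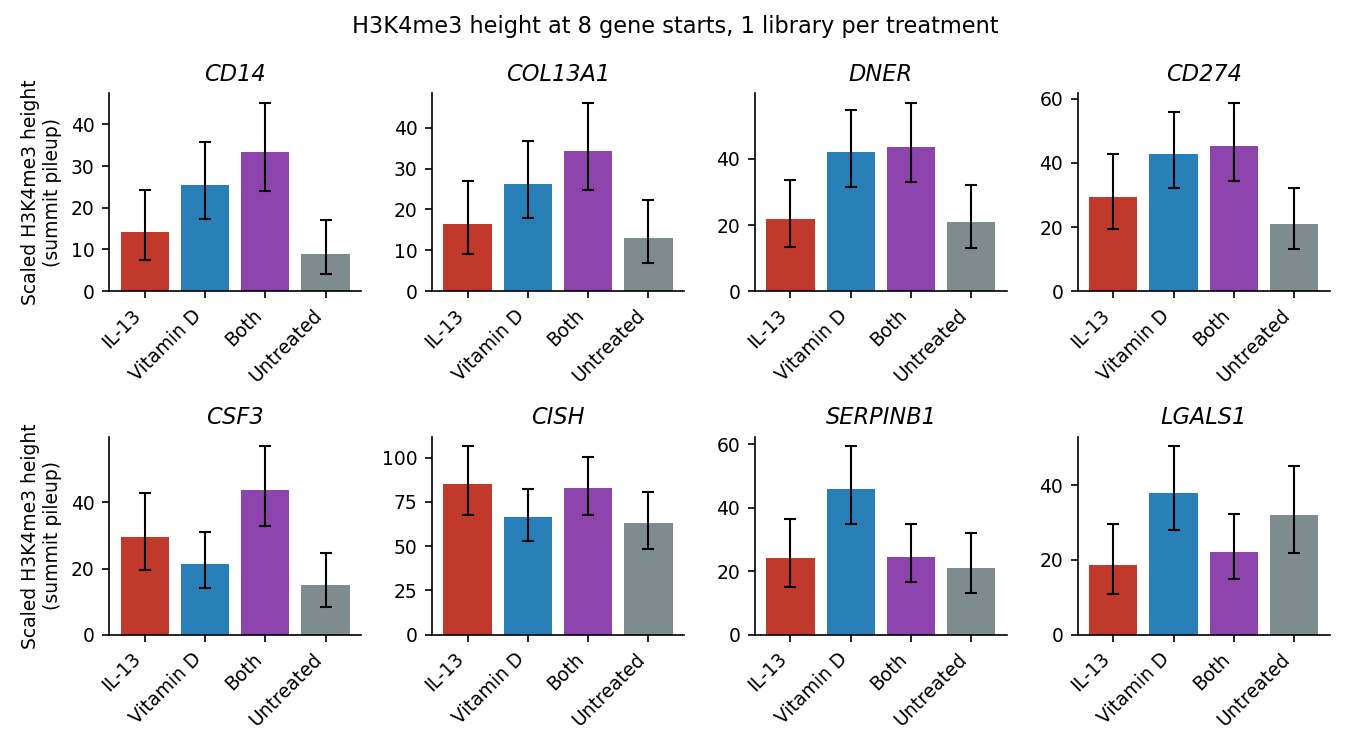
Scaled H3K4me3 height (y axis, summit pileup over the library's scale factor) at the starts of CD14, COL13A1, DNER, CD274, CSF3, CISH, SERPINB1 and LGALS1 in the IL-13, vitamin D, both and untreated libraries, 1 library per bar. Error bars are 95% Poisson intervals of the pileup and cover counting error only. CD14, COL13A1, DNER and CD274 are highest in the 2 libraries with vitamin D, and CSF3 and CISH in the 2 with IL-13.

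Among regions above the lower quartile of height, others ranked highest for vitamin D by the smaller ratio of the pairs lay at TMEM91, TMEM40, IFITM10, PLCD4 and C1orf210 and near SPOCD1, HDAC9 and LOC645249. TMEM91, a transmembrane protein gene, had 18.6 with IL-13, 38.8 with vitamin D, 48.5 with both and 24 in untreated cells, but taken at the highest summit within 1 kb of the gene's own start its ratio of vitamin D over untreated was -0.13. The region nearest SPOCD1, in an exon, had 22.9 with IL-13, 57.0 with vitamin D, 47.7 with both and 36 in untreated cells. TMEM40 had 31.7, 54.6, 51.7 and 38 and IFITM10 had 28.4, 49.1, 40.5 and 27 in that order of libraries. CSF3, which encodes the granulocyte growth factor G-CSF, was also in this group, since its height with both treatments exceeded that with either alone. Of these, TMEM40, IFITM10, PLCD4, C1orf210 and CSF3 stayed below 1.5-fold in at least 1 of the pairs, with a smaller log2 ratio of 0.52, 0.51, 0.51, 0.54 and 0.51. All regions named as having the largest ratios were ranked on these heights, so their ratios describe and do not test.

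H3K4me3 at the genes whose RNA vitamin D raised was higher as a group. Vitamin D raised 189 genes (1.245% of those tested) at least 2-fold in the authors' deposited table, and 128 of them had an H3K4me3 region in all 4 libraries. Their median log2 ratio of height was 0.18 for vitamin D over untreated and 0.20 for both over IL-13, against -0.02 in both pairs over all 12593 genes tested for RNA with such a region. The height ratio was above 0 at 100 and at 98 of the 128 genes in the 2 pairs. At least 1.5-fold higher were 20 (15.6%) and 17 (13.3%) of them, against 1.27% and 1.28% of all. In either pair 0 were 1.5-fold lower, against 0.254% and 0.341% of all. These shares depended on the processing: above the lower quartile of height they were 7.14% and 6.12%, against 0.308% and 0.342% of all. The second share was 2.34% with background scaling and 7.81% within height bins, against 0.0953% and 0.699% of all. The gap between the medians of raised and all genes was 0.20 and 0.22, and 0.16 in each pair within height bins. A change of a library's scale factor shifts both medians alike and leaves the gap as it is: with background scaling the raised genes stood at 0.06 and -0.29 and all genes at -0.14 and -0.50. The raised genes had a lower median height in untreated cells, 40 against 63, and weak regions have wider ratios. The part of that in the shares past 1.5-fold was not tested.

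At 10 of these 128 genes the height was at least 1.5-fold higher in both vitamin D pairs, where 44 of all 13569 genes with a region (0.324%) were. Beside CD14, COL13A1, DNER and CD274 they were TMEM156, AKAP12, PTAFR, HSD17B2, LOC284837 and LYPD5. TMEM156 had scaled heights of 5.46 with IL-13, 20.6 with vitamin D, 17.5 with both and 9 in untreated cells. AKAP12, which encodes a scaffold of protein kinase A, had 7.65, 25.3, 13.5 and 10, and PTAFR, the receptor gene for platelet-activating factor, had 13.1, 24.5, 23.8 and 15. HSD17B2, whose enzyme inactivates estradiol and testosterone, had 5.46, 14.2, 11.9 and 8. Each of these starts was weaker than the median region, and LYPD5 was the weakest at 5 to 11.1. Within height bins 7 of the 10 stayed past 1.5-fold, without CD274, HSD17B2 and LYPD5, and with background scaling 3 did, CD14, HSD17B2 and TMEM156. Of all 13569 genes, 19 were that much higher in both pairs within height bins and 8 with background scaling.

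**Figure D4:**
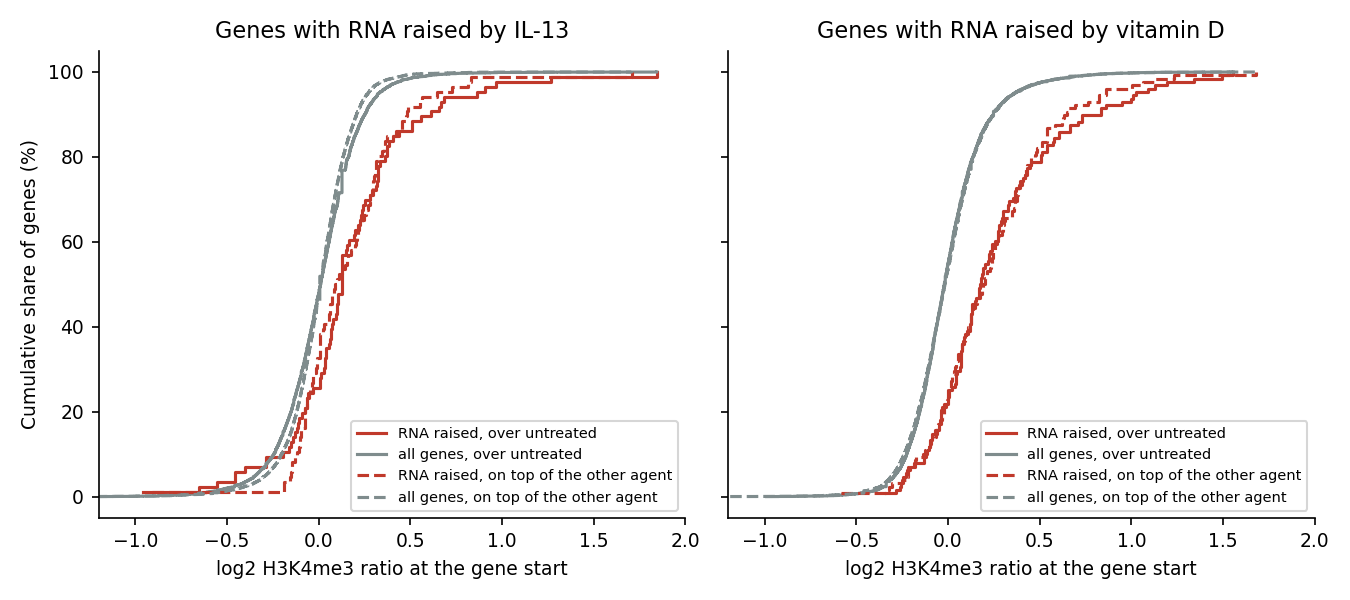
Cumulative share of genes (y axis, percent) by log2 ratio of H3K4me3 height at the gene start (x axis). Red lines are genes with RNA raised at least 2-fold in the authors' deposited table by IL-13 (left, 86 genes) or vitamin D (right, 128 genes), grey lines all 13569 genes with a region, solid for the agent over untreated and dashed for the agent on top of the other. Over most of their length the red lines lie to the right of the grey ones, further so for vitamin D.

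For genes whose RNA vitamin D lowered, the median H3K4me3 ratio was not below that of all genes. Of 69 such genes (0.455%) in the authors' deposited table, 41 had a region in all 4 libraries. Their medians were 0.03 and 0.07 in the 2 pairs, against -0.02 in both over all genes tested. At least 1.5-fold higher were 1 and 0 of the 41, against 1.27% and 1.28% of all. At least 1.5-fold lower were 0 in either pair, against 0.254% and 0.341% of all, so 0 of 41 lies near that share. SOX2, the progenitor transcription factor gene, had 57.9 with IL-13, 45.9 with vitamin D, 50.9 with both and 59 in untreated cells (log2 ratios -0.36 and -0.19), while its RNA was 15.6, 2.22, 7.15 and 10.5 RPKM with IL-13, vitamin D, both and no treatment in the authors' deposited table. The 2 libraries with vitamin D were the lower ones, but the counting intervals of -0.91 to 0.19 and -0.73 to 0.37 span 0. Strongly marked starts differed little even where RNA differed much. FOS, the immediate early transcription factor gene, had 64.4 with IL-13, 62.5 with vitamin D, 66.8 with both and 58 in untreated cells, while the authors' deposited table gives its RNA a log2 change of 3.39 with vitamin D. TGFB1, the growth factor gene, had 73.2, 76.8, 77.9 and 69 in that order of libraries, against a log2 change of 1.37 for its RNA in the authors' deposited table.

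Among regions above the lower quartile of height, the start of CSF3 (chr17:38171275-38174527) had the largest H3K4me3 ratio with IL-13, ranked by the smaller of the ratios of its pairs. Its scaled height was 29.5 with IL-13, 21.4 with vitamin D, 43.7 with both and 15 in untreated cells, with ratios of 0.98 (0.01 to 1.99) and 1.03 (0.34 to 1.75) for IL-13. CSF3 RNA was 1.84, 2.03, 3.07 and 0.99 RPKM in that order of libraries in the authors' deposited table. KCNJ12, which encodes an inward rectifier potassium channel, had 17.5, 10.3, 18.3 and 11, with ratios of 0.67 and 0.83 whose intervals span 0. Both libraries with IL-13 exceeded both without it at CSF3 and at KCNJ12.

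IL-13 response genes with a strong start differed less. CISH (chr3:50647352-50650394), the gene with 4 STAT motifs of the 3-base spacer above, had 85.2 with IL-13, 66.5 with vitamin D, 82.7 with both and 63 in untreated cells. Its ratios were 0.44 (-0.06 to 0.94) and 0.31 (-0.11 to 0.75), and its region was 2782 bases wide with IL-13 and 2844 with both, against 1949 with vitamin D and 1928 in untreated cells. CISH RNA was 23.3, 4.24, 27.8 and 3.90 RPKM with IL-13, vitamin D, both and no treatment in the authors' deposited table. ANO1, a calcium-activated chloride channel gene, had 61.2, 37.2, 47.7 and 43 in that order of libraries, with ratios of 0.51 (-0.09 to 1.12) and 0.36 (-0.22 to 0.94), and a region of 2511 and 2454 bases with IL-13 and both against 1330 and 1504 without IL-13. SOCS1, another feedback inhibitor of cytokine signalling, had 67.7, 65.7, 63.6 and 63, with no order by treatment, while the authors' deposited table gives its RNA a log2 change of 1.79 with IL-13. Below 1.5-fold, the widths of CISH and ANO1 thus separated the libraries with IL-13 from those without it.

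Over the 122 genes (0.804% of those tested) that IL-13 raised at least 2-fold in the authors' deposited table, 86 had a region in all 4 libraries. Their median log2 ratio of height was 0.13 for IL-13 over untreated and 0.09 for both over vitamin D, against 0.01 in both pairs over all 12600 genes tested for RNA with a region. At least 1.5-fold higher were 9 (10.5%) and 5 (5.81%), against 0.675% and 0.278% of all. At least 1.5-fold lower were 2 (2.33%) and 1 (1.16%), against 0.968% and 0.532% of all. Past 1.5-fold in both IL-13 pairs were 2 of the 86, among them KCNJ12, where 8 of all 13569 genes (0.059%) were. The untreated median height of these 86 genes was 43 against 63. Of the 59 genes (0.389%) that IL-13 lowered in the authors' deposited table, 19 had a region, with medians of -0.01 and -0.03. With background scaling the medians of the 86 raised genes were 0.28 and -0.12, against 0.16 and -0.20 for all, a shift of both by the same amount within a pair. The shares at least 1.5-fold higher were 3.08% and 1.54% above the lower quartile of height, against 0.256% and 0.0427% of all.

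IL-13 on top of vitamin D gave a like picture with its own RNA comparison. At least 2-fold higher with both than with vitamin D were 164 genes (1.1%) in the authors' deposited table, and 114 of them had a region, with median height ratios of 0.10 for both over vitamin D and 0.09 for IL-13 over untreated. Of the 76 genes (0.512%) lower with both than with vitamin D in the authors' deposited table, 32 had a region, with medians of -0.09 and -0.01. In the first of these pairs 6 of the 32 (18.8%) were at least 1.5-fold lower, against 0.521% of all genes tested, and in the second 1 (3.12%). With both over untreated, 292 genes (1.83%) were raised and 231 (1.45%) lowered in the authors' deposited table, with median height ratios of 0.17 at the 198 and -0.03 at the 117 with a region, where 183 of all 13569 genes (1.35%) were at least 1.5-fold higher and 74 (0.545%) lower.

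Lower with IL-13 in both pairs were 6 gene starts (0.0442%), those of LGALS1, GPRC5A, ONECUT3, PNMT, PPAPDC1A and MIR661. LGALS1, which encodes the carbohydrate-binding protein galectin-1 (chr22:38071201-38073870), had 18.6 with IL-13, 38.0 with vitamin D, 22.3 with both and 32 in untreated cells, with ratios of -0.79 (-1.73 to 0.11) and -0.77 (-1.50 to -0.07). GPRC5A, an orphan receptor gene induced by retinoic acid, had 17.5, 37.2, 23.1 and 30 in that order of libraries, with ratios of -0.78 (-1.75 to 0.14) and -0.69 (-1.41 to 0.01). At both genes the 2 libraries with IL-13 lay below the 2 without it. LGALS1 RNA was 803, 874, 790 and 822 RPKM with IL-13, vitamin D, both and no treatment in the authors' deposited table, a far smaller difference. CDA, the cytidine deaminase gene, had 28.4, 53.0, 33.4 and 39, and the metallothionein gene MT2A had 27.3, 40.4, 29.4 and 40, with ratios of -0.55 and -0.46. The authors' deposited table gives MT2A RNA a log2 change of -1.28 with IL-13.

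Lower with vitamin D in both pairs were the starts of GBP4, which encodes an interferon-induced GTPase, and of the kinase gene MAPK15, 2 in all (0.0147%). Among regions above the lower quartile of height, the largest drop lay in an exon nearest UCA1, a long non-coding RNA gene (chr19:15946737-15948464), with 57.9 with IL-13, 23 with vitamin D, 32.6 with both and 55 in untreated cells. Both libraries with vitamin D were lower there, with ratios of -1.26 (-1.96 to -0.59) and -0.83 (-1.45 to -0.21), and the region overlapped a VDR region. H3K27ac did not follow at this region, at scaled heights of 88.8, 83.4, 90.0 and 76 in that order of libraries. UCA1 RNA was 5.62, 16.2, 11.6 and 7.35 RPKM with IL-13, vitamin D, both and no treatment in the authors' deposited table. The treatments with the lower mark at this region thus had the higher RNA. The region is not at the UCA1 start, which lies 6980 bases away and had no H3K4me3 region in any library.

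SERPINB1, which encodes an inhibitor of neutrophil elastase (chr6:2839804-2842475), had its highest mark with vitamin D alone. Its scaled heights were 24.0 with IL-13, 45.9 with vitamin D, 24.6 with both and 21 in untreated cells. The ratio was 1.13 (0.39 to 1.92) for vitamin D over untreated and 0.04 (-0.80 to 0.89) for both over IL-13. SERPINB1 RNA had the same highest library, at 34.3 RPKM with IL-13, 407 with vitamin D, 207 with both and 64.0 in untreated cells in the authors' deposited table.

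Many genes that responded in RNA had no H3K4me3 region at all. No region lay within 1 kb of a start in any library for 33 of 122 genes raised by IL-13 (27%, Wilson 95% interval 20 to 35.5) and 35 of 59 lowered by it (59.3%, 46.6 to 70.9), against 15.1% of all genes tested for RNA. For vitamin D the shares were 55 of 189 raised (29.1%, 23.1 to 35.9) and 21 of 69 lowered (30.4%, 20.8 to 42.1), against 15.1%. For both treatments over untreated they were 80 of 292 raised (27.4%) and 99 of 231 lowered (42.9%), against 17.6%. Restricted to genes of at least 10 RPKM in either group in the authors' deposited table, the shares for IL-13 were 13.5% of raised, 55.6% of lowered and 2.82% of all, and for vitamin D 17.8%, 26.7% and 2.85%. Genes count as independent in these intervals, which neighbouring genes of a cluster are not.

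**Figure D5:**
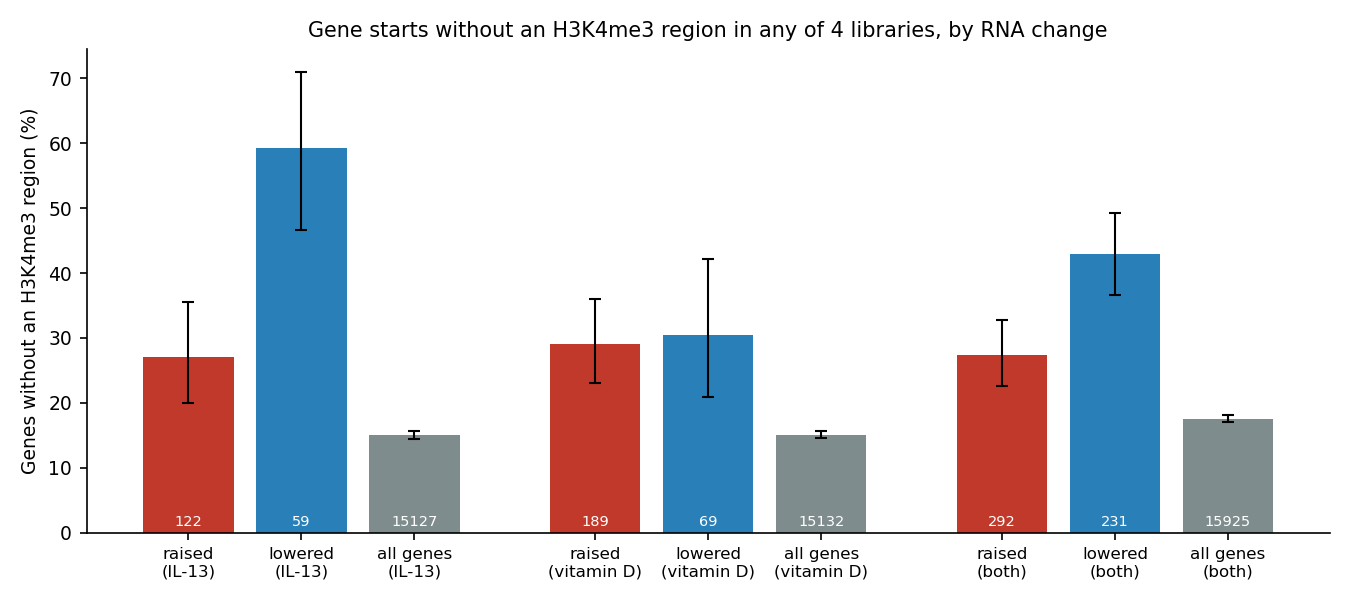
Share of genes (y axis, percent) with no H3K4me3 region within 1 kb of a start in any of the 4 libraries, for genes with RNA raised or lowered at least 2-fold and for all genes tested in the authors' deposited table. Bars carry Wilson 95% intervals and gene numbers. The tallest bar, 59.3%, is that of genes lowered by IL-13.

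Genes without the mark included some with large RNA responses. CYP24A1, whose enzyme degrades vitamin D, was at 0.28, 560, 463 and 0.48 RPKM with IL-13, vitamin D, both and no treatment in the authors' deposited table, and the nearest H3K4me3 region, called in 1 library, lay 4619 bases from its start. CCL26 was at 7.85, 0.02, 9.73 and 0.02 RPKM in that order in the authors' deposited table, with its nearest region 32189 bases away. IVL reached 92.6 RPKM with vitamin D in the authors' deposited table, with none within 37038 bases, and KRT4, an esophageal keratin gene, 242 RPKM with none within 59691 bases. KRT10, at 103 RPKM in untreated cells in the authors' deposited table, had its nearest region 2589 bases away, in all 4 libraries. CAPN14, which encodes an esophageal calpain protease, was at 358, 14.9, 463 and 10.2 RPKM with IL-13, vitamin D, both and no treatment in the authors' deposited table. It had 1 weak region near its start, at a scaled height of 5.56, called with both treatments and not in the other 3 libraries.

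Acetylation was found at some of these bare starts. H3K27ac at CYP24A1 had scaled heights of 23.1 with vitamin D, 20.2 with both and 9 in untreated cells and was not listed with IL-13, and at CCL26 it was listed at 28.8 with IL-13 and 27 with both and in neither other library. Among the 652 genes at 1 RPKM or more in untreated cells that had no H3K4me3 region in any library, 30.5% had an H3K27ac region at the start in untreated cells and 10.9% an H3K9ac region, against 99.4% and 96.4% of the 10482 with H3K4me3 in all 4. The H3K27ac share at the 652 starts was 17.2% in the IL-13 library, 19.5% in the vitamin D library and 19% in the library with both. The median H3K27ac height at H3K4me3 regions was 16, 21 and 17 in these libraries, against 37 in untreated cells. SERPINB3 and SERPINB4, near-identical paralogs whose reads may be shared or dropped, also had no H3K4me3 region, and so an absence there is uncertain.

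The bare promoters were poor in CpG. Coding genes outside chromosome 8 with at least 10 RPKM in any of the 4 treatments in the authors' deposited table numbered 5399. RefSeq sequence was matched for 4524 of the 5206 with the mark in all 4 libraries and for 126 of the 154 with no region. The median promoter of the marked genes had 22 CG in 250 bases, an observed-to-expected CG ratio of 0.846 and a GC content of 66.0%, and that of the unmarked genes 5, 0.286 and 57.6%. A ratio of 0.6 or more was found in 85.7% of the marked and 27.8% of the unmarked. The share of genes without a region was smaller in each higher class of this ratio, at 22.9% of 188 genes under 0.2, 15.5% of 233 at 0.2 to 0.4, 3.56% of 337 at 0.4 to 0.6, 0.992% of 1210 at 0.6 to 0.8 and 0.850% of 2707 above 0.8. CD14, with a ratio of 0.268, carried the mark despite a CG-poor promoter.

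The gene lists, drawn up with earlier results of these data known, were described by counts and medians beside all genes. Of all 23407 genes 13569 had a region in all 4 libraries. The IL-13 response list had a region in all 4 libraries at 13 of 29 genes, with a median log2 ratio of 0.07 for IL-13 over untreated and 0.01 for both over vitamin D, against 0.01 for all genes. In the first of these pairs 1 gene was 1.5-fold higher and 0 lower, where 132 of 13569 genes (0.973%) were higher and 162 (1.19%) lower, and in the second 1 and 0, where 54 (0.398%) and 99 (0.73%) were. VDR targets had such a region at 21 of 30 genes, with medians of 0.15 for vitamin D over untreated and 0.10 for both over IL-13, against -0.02 for all genes in both. Of them 3 and 1 were higher and 0 lower, where 236 (1.74%) and 229 (1.69%) of all were higher and 43 (0.317%) and 65 (0.479%) lower. Epithelial differentiation genes had a region in all 4 at 15 of 39 listed, and 21 had none in any library, among them IVL, KRT1, KRT10, KRT4, DSG1, CRNN and FLG. The 15 had medians of -0.11 for IL-13 over untreated and -0.05 for both over vitamin D, with 0 and 1 at least 1.5-fold lower.

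Lists with strong starts hardly differed between libraries. All 15 housekeeping genes and all 24 immediate early genes were marked in each library, at median untreated heights of 68. Their medians lay between -0.08 and 0.06 in all 5 comparisons, with 0 genes past 1.5-fold in any. The same held for the 10 H3K4 methyltransferase genes and partners found by name and the 7 H3K4 demethylase genes, whose own starts had median untreated heights of 61 and 69 and 0 genes past 1.5-fold, with list medians between -0.12 and 0.15. Basal epithelial genes had a region in all 4 at 19 of 20, with 0 past 1.5-fold for either agent alone and 1 higher with both over IL-13. Of all 13569 genes 0.317% to 1.74% were past 1.5-fold per direction in the 5 comparisons. Counts of 0 in lists this small lie near that share.

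Interferon response genes, 18 of 21 of which had a region in all 4 libraries, had weaker starts, with a median untreated height of 33 against 62 for all genes. At least 1.5-fold higher and lower were 0 and 2 with IL-13 over untreated, 1 and 1 with vitamin D over untreated, and 1 and 2 with both over untreated. With both over vitamin D the counts were 0 and 0, and with both over IL-13 they were 1 and 1. The share of all genes in these comparisons lay between 0.317% and 1.74% in either direction.

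STAT6 and VDR binding was set beside the mark. Of 4802 STAT6 regions called with IL-13, 810 (16.9%) overlapped an H3K4me3 region. At the 253 H3K4me3 regions, called in all 4 libraries, that overlapped a STAT6 region found with IL-13 and not in untreated cells, the median log2 ratio was 0.03 for IL-13 over untreated and 0.04 for both over vitamin D, with 10 (3.95%) and 9 (3.56%) at least 1.5-fold higher, against 2.36% and 1.55% of all regions. Over all 445 such regions with a STAT6 region called with IL-13, also where untreated cells had one, the medians were -0.02 and 0.12, with 13 (2.92%) and 50 (11.2%) higher and 33 (7.42%) and 4 lower, so the pairs went opposite ways. Of 9224 VDR regions called with vitamin D, 1967 (21.3%) overlapped an H3K4me3 region. At the 1157 H3K4me3 regions with a VDR region found with vitamin D and not in untreated cells, the medians were -0.01 for vitamin D over untreated and -0.01 for both over IL-13, with 36 (3.11%) and 37 (3.20%) higher, shares that lay at or below the 3.81% and 4.18% of all regions.

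The strongest and widest regions were not all promoters. The highest untreated region, nearest ANKRD20A12P on chromosome 1 close to the centromere, had 198 with IL-13, 161 with vitamin D, 177 with both and 196 in untreated cells, and it was also far above the usual height in H3K9ac and H3K27ac, at 206 and 239 in untreated cells. Among promoters, MST1P2 had 129, 116, 111 and 127, PDXDC1 108, 105, 102 and 118, and GMEB2 103, 97.4, 98.6 and 113 in that order of libraries. MST1P2 and NBPF1 belong to families of near-identical copies, so their heights are uncertain. The widest untreated regions included those at TFAP2A, RUNX1, S100A14 with S100A16, MEIS1 and MIR31HG. RUNX1, a transcription factor gene, had scaled heights of 65.5 with IL-13, 75.2 with vitamin D, 66.0 with both and 74 in untreated cells, and TFAP2A, which encodes the epithelial transcription factor AP-2 alpha, had 67.7, 57.0, 69.2 and 63. Both differed by less than 1.5-fold across the 4 libraries.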

How the data were processed

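The ChIP values are MACS2-style peak lists, 1 per library, as the authors deposited them. The pileup is a signal of stacked fragments at each summit, per the file headers, all whole numbers and not scaled to a common depth. Fold enrichment is the authors' ratio of pileup to local background, and the −log10 q value of each summit is deposited by the authors. The RNA tables hold 1 RPKM value per group, with log2 fold changes and adjusted p-values deposited by the authors. Per the submitters' processing notes, the tools were MACS2, Bowtie, Trim Galore, SAMtools and STAR, and the build was hg19 (GRCh37). Their versions and settings, and any control library, were not given in those notes. One RNA table is named for the wrong pair: its columns hold vitamin D against both, and it was used so.

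Summits were merged by chromosome, start and end, and 46 to 49 mitochondrial lines per list without a q value were left out. Depth is known only as the relative background and the pileups themselves. Regions of the 4 lists that overlapped by 1 base were merged. Scaling used the median ratio at regions called in all 4, and 1.5-fold was the threshold. Just inside and outside it, the smaller log2 ratio of the 2 pairs was 0.587 and 0.575 for IL-13 upward, 0.610 and 0.579 downward, and 0.589 and 0.585 for vitamin D upward, 0.596 and 0.585 downward. Intervals of heights are exact Poisson, those of ratios exact binomial, and those of shares Wilson, at 95%. Gene starts were the RNA table's start plus any start given by a peak line that names 1 gene, 26809 starts of 23407 genes; 124 of 23531 genes were left out because their start lay on no primary chromosome. RNA calls needed an adjusted p of 0.05 and 2-fold in the authors' deposited table. No p-value was computed here.

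Named regions were the 12 with the largest rise and the 12 with the largest fall in both pairs for each agent, among those above the lower quartile of height, the 10 highest and 10 widest, fixed list genes, and genes changed in RNA and past 1.5-fold in both pairs. The members, lists and rules were chosen with earlier results of these data known, and the genes changed in RNA and past 1.5-fold in both pairs were named after their values were seen. A result withheld for evaluation is not reported here. Python 3.11.15, numpy 2.4.6, pandas 2.3.3 and scipy 1.17.1 were used, and the steps were tested on simulated data. Promoter sequences were matched for 16332 of 23407 genes. Alternatives covered scaling, the value per region, filters, thresholds, overlap and windows, and 2 of them, the 20 height bins and the highest summit within 1 kb of a start, were added after the data were seen.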

Additional observations from a re-analysis of the deposited data

Results flagged for a closer look

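SERPINB1 stood out among the named genes because its IL-13 ratio had opposite signs in the 2 separate pairs, with 1 of them past 1.5-fold. The log2 ratio of H3K4me3 height was 0.19 for IL-13 over untreated (95% counting interval -0.74 to 1.13) and -0.90 for both over vitamin D (-1.58 to -0.24). The difference between the 2 was not tested, since each treatment had 1 library. Across the alternatives tried the first ratio lay between 0.17 and 1.46 and the second between -1.11 and -0.61.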

How the results depend on the processing

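No paired analysis was possible because each treatment had 1 H3K4me3 library and the RNA tables hold 1 value per group. Leaving out a replicate was likewise impossible. Of 151 counts and shares recomputed under 14 alternatives, 57 stayed within 1.5 times of the reported value, or within its interval, and 94 did not. Of 3264 recomputed ratios of named regions, 3144 stayed within the counting interval of the reported ratio and 106 lay outside it. The other 14 were at least 1.5-fold in the reported value, in either direction, and changed sign. Ratios below 1.5-fold were judged by the interval only, whatever their sign.

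Counts past the threshold are given for IL-13 over untreated, vitamin D over untreated, both over untreated, both over vitamin D and both over IL-13, then for both IL-13 pairs and both vitamin D pairs. The reported counts were 858, 779, 812, 579, 892, 63 and 129. They were 260, 240, 234, 157, 304, 7 and 31 for regions with −log10 q of at least 10, and 426, 419, 397, 295, 445, 22 and 56 for 1 region per library with 50% of both lengths shared. At the lower fold, 0.32 on the log2 scale, they were 2937, 2743, 2835, 2185, 2877, 508 and 694, and at 2-fold 109, 98, 105, 58, 140, 4 and 6. Above the lower quartile of height they were 114, 78, 62, 40, 94, 4 and 8, and with summed summit pileups 3745, 3915, 4014, 3761, 3896, 659 and 776. Background scaling gave 1727, 1039 and 4917 for both over untreated, over vitamin D and over IL-13, and fold enrichment gave 35 for both IL-13 pairs. Fewer regions or another threshold follow from how most of these were built; for background scaling, fold enrichment and summed summits the cause was not tested.

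The share of regions called in all 4 libraries was 88.1% at −log10 q of at least 10, 56.7% with 50% of both lengths shared and 87.9% for the same number of highest regions per library. Within 2.5 kb of a start 94.3% of genes at 1 RPKM had a region.

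Among genes raised by IL-13, the share at least 1.5-fold higher (10.5% over untreated and 5.81% over vitamin D) was 5.33% over untreated at −log10 q of at least 10, 5.36% over untreated with 50% of both lengths shared, 25.6% and 20.9% at the lower fold, 2.33% and 1.16% at 2-fold, 3.08% and 1.54% above the lower quartile and 27.9% and 25.6% with summed summits. Among genes raised by vitamin D (15.6% over untreated and 13.3% over IL-13) it was 10% over untreated with 50% of both lengths shared, 32.8% and 34.4% at the lower fold, 6.25% and 3.91% at 2-fold, 7.14% and 6.12% above the lower quartile, and 39.1% and 33.6% with summed summits. Over IL-13 it was 2.34% with background scaling and 7.81% within height bins, against 0.0953% and 0.699% of all genes tested. In the 2 IL-13 pairs the shares of all were 4.59% and 2.38% at the lower fold. They were 0.0635% and 0.0238% at 2-fold, and 10.3% and 9.75% with summed summits. In the 2 vitamin D pairs they were 5.12% and 5.38%, 0.167% and 0.159%, and 9.63% and 8.74% in the same order. With RNA called at any fold the shares of raised genes were 1.11% and 0.58% for IL-13 and 1.93% and 1.67% for vitamin D. Those of all genes were 0.675% and 0.278%, and 1.27% and 1.28%. Without a region were then 6.46% of raised and 14.2% of lowered genes for IL-13 and 9.83% and 10.4% for vitamin D. The share of all genes tested was 15.1% for either agent.

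The share of regions with STAT6 at least 1.5-fold higher with IL-13 over untreated (3.95%) was 1.83% at −log10 q of at least 10, 1.97% with 50% of both lengths shared, 9.09% at the lower fold, 0.395% at 2-fold, 1.53% above the lower quartile, 7.51% with background scaling and 14.2% with summed summits. That with VDR for vitamin D over untreated (3.11%) was 1.34%, 1.54%, 8.3%, 0.691%, 0.619%, 1.73% and 11.3% in the same order, and 1.56% within height bins. Of all 16106 regions, 739 were higher with IL-13 over untreated with background scaling, 1884 with summed summits, 1303 at the lower fold and 43 at 2-fold. For vitamin D over untreated the counts were 356, 2143, 1790 and 80 in that order, and 307 within height bins. Above the lower quartile they were 46 for IL-13 and 68 for vitamin D, of 12079 regions.

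Among named ratios of at least 1.5-fold, the log2 ratio changed sign with summed summits at MIR137 and MIR2682 (both over untreated, -0.25), SP110 (both over untreated, -0.041), CNTNAP2 with MIR548T (IL-13 over untreated 0.18, both over untreated 0.16), HDAC9 (both over IL-13, -0.68), LOC645249 (both over IL-13, -0.19), SULF1 (vitamin D over untreated 0.041, both over IL-13 0.26), AGMAT with DDI2 (both over untreated 0.61, both over IL-13 0.16), DLGAP3 (both over untreated 0.17, both over IL-13 0.10) and TMEM156 (IL-13 over untreated, 0.18). Smaller ratios are not in this list, and some of them changed sign too. With summed summits, vitamin D over untreated at CLMN went from 0.57 to -0.18, and both over IL-13 at PLCD4 from 0.51 to -0.25. At TMEM91 the highest summit near the start gave -0.13 for vitamin D over untreated. The cause was not tested. Low pileups limit the ratios of weak regions to the wide intervals given.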

Other observations

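Some regions listed in both libraries with an agent and in neither without it, or the reverse, were weak throughout. With vitamin D, CYP4F11, a fatty acid hydroxylase gene, had scaled H3K4me3 heights of 10.3 with vitamin D and 11.1 with both. With IL-13, a region between genes nearest RBM26 had 12 with IL-13 and 15.1 with both, and H3K27ac there was 31.2 and 31.5 in those libraries, against 10.6 with vitamin D and 14 in untreated cells. A region nearest LOC100507127 on chromosome 10 had 8.74 with IL-13 and 11.9 with both, overlapped a STAT6 region, and had H3K27ac at 45.6 and 45 in those libraries, against 19.5 with vitamin D and 23 in untreated cells. Upstream of IFITM1, an interferon-induced membrane protein gene, and of IFITM5 of the same family, a region was listed at 9.50 with vitamin D and 14 in untreated cells and in neither library with IL-13. The IFITM1 start itself was marked in all 4, at 13.1 with IL-13, 15.8 with vitamin D, 15.1 with both and 13 in untreated cells. An absent listing is not a height of 0 at any of them.

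Regions between genes that stood higher with IL-13 in both pairs included one nearest DYM on chromosome 18, at 54.6 with IL-13, 34.8 with vitamin D, 58.8 with both and 37 in untreated cells, with H3K27ac at 69.6, 44.4, 78.8 and 45 and a STAT6 region. The region nearest MUT on chromosome 6 had 32.8, 21.4, 34.2 and 21, with H3K27ac at 55.2, 46.1, 63.0 and 44 and a STAT6 region. In both, the 2 libraries with IL-13 were the higher ones for both marks.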
